A study of Rattus norvegicus with 6 samples.

Results

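The genes described here are 10 cell surface molecules by which cardiac fibroblasts hold on to each other, to matrix and to leukocytes. They were taken by symbol from the count files, and all 10 of the members were found among 21857 symbols and were among the 12941 genes kept for testing. Vcam1 and Icam1 are ligands for leukocyte integrins. Alcam, Thy1 and Ncam1 are other members of the immunoglobulin superfamily. Cdh2, Cdh11 and Cdh13 encode N-cadherin, cadherin-11 and T-cadherin. Gja1 encodes the gap junction protein connexin 43, and Antxr1 a collagen-binding receptor that also takes up anthrax toxin.

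RNA-seq was carried out on NRCFs (neonatal rat cardiac fibroblasts), which are primary cells, taken from the hearts of rats up to 3 days old. The design text names Sprague-Dawley rats, while the strain tag of every sample reads Noway. The cells were transfected with a plasmid carrying rat FTO, an RNA demethylase that removes N6-methyladenosine, or with the empty plasmid (Vector, genotype label WT). Each group had 3 libraries. Both groups thus carried a plasmid. Neither the labels nor the methods say whether the libraries came from separate cultures or how many hearts were pooled. The p-values therefore set each group difference against the spread between these libraries, which may be technical.

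Adhesion molecules of these families work in different ways. Cadherins bind the same cadherin on the next cell in the presence of calcium, and classical cadherins are tied to actin by catenins. VCAM-1 and ICAM-1 are displayed by activated endothelium and stroma. They are bound by the integrins VLA-4 (Itga4 with Itgb1) and LFA-1 (Itgal with Itgb2) of leukocytes, and both genes are classical targets of NF-κB. In the heart, N-cadherin and connexin 43 also join cardiomyocytes at the intercalated disc, and cadherin-11 is the cadherin best known from fibroblasts.

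The libraries held 13178952 to 17857999 counted reads. Values are given as TMM-normalized CPM (reads of a gene scaled to a common library total), which are not scaled by gene length, so levels are compared between libraries and not between genes. The level of Fto was examined first. It was 87.8, 89.6 and 87.4 CPM in Vector replicates 1, 2 and 3, and 93.2, 90.8 and 92.9 CPM in the libraries labelled FTO. Every library labelled FTO lay above every Vector library, but by little. The difference of 0.06 on the log2 scale (SE 0.0468, edgeR adjusted p-value 0.239) did not pass the test, and the 95% interval of the fold change ran from 0.976 to 1.12. Each direction given for the adhesion genes is therefore a difference between labelled libraries, in which no rise of Fto mRNA passed the test.

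Markers of the labelled cell type were present, since all 10 fibroblast markers were detected (6 called higher and 4 lower), with summed levels of 30697 to 31112 CPM in Vector and 18487 to 19056 CPM in the libraries labelled FTO. The fall of this sum came from Col1a1, a collagen chain. The other 9 summed to 5056 to 5272 CPM in Vector and 10327 to 10653 CPM under the FTO label. That rise came in turn from Dcn alone, at 47.0 CPM on average in Vector and 5611 CPM under the FTO label. The sums thus rest on single genes. The list had a median log2 fold change of 0.80. Markers of other cells were present too, and their sums are also given without the gene whose mean CPM differed most between the groups, a choice made after the data were seen. The 10 cardiomyocyte markers summed to 1528 to 1561 CPM in Vector and 2324 to 2369 CPM in the libraries labelled FTO, where 9 were called higher and 1 lower (1259 to 1284 and 1661 to 1721 CPM without Nppa). The 13 macrophage markers summed to 1848 to 1907 and 310 to 349 CPM, with 12 called lower and 1 higher (756 to 777 and 218 to 246 CPM without Lyz2). The 7 epicardial markers, of which 6 were tested with 4 called higher and 1 lower, summed to 38.2 to 38.6 and 137 to 154 CPM. Most of that rise was Msln, mesothelin, without which the sums were 35.1 to 35.9 and 56.6 to 64.2 CPM. Of 5 epithelial markers 2 were tested and called higher, with sums of 2.15 to 2.62 and 8.21 to 11.9 CPM (1.66 to 2.21 and 2.03 to 3.47 CPM without Krt18). The part of these cells in the results was not tested. In bulk RNA, fewer cells of a type and less RNA per cell cannot be told apart.

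All of the 10 adhesion genes were called different between the groups (adjusted p-value under 0.05), with 6 higher and 4 lower under the FTO label. Of all genes tested, 65.9% were called, 33.2% as higher and 32.8% as lower, so being called is common in this comparison. At a log2 fold change of at least 1 in either direction with an unadjusted p-value under 0.05, 6 of the members passed, against 19.6% of all tested genes. For 9 of the members the highest library of one group lay below the lowest of the other, as for 70.3% of all tested genes. The median log2 fold change of the members was 0.37, beside 0.00 for all tested genes, and the median of its absolute size was 1.31, beside 0.36.

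**Figure D1:**
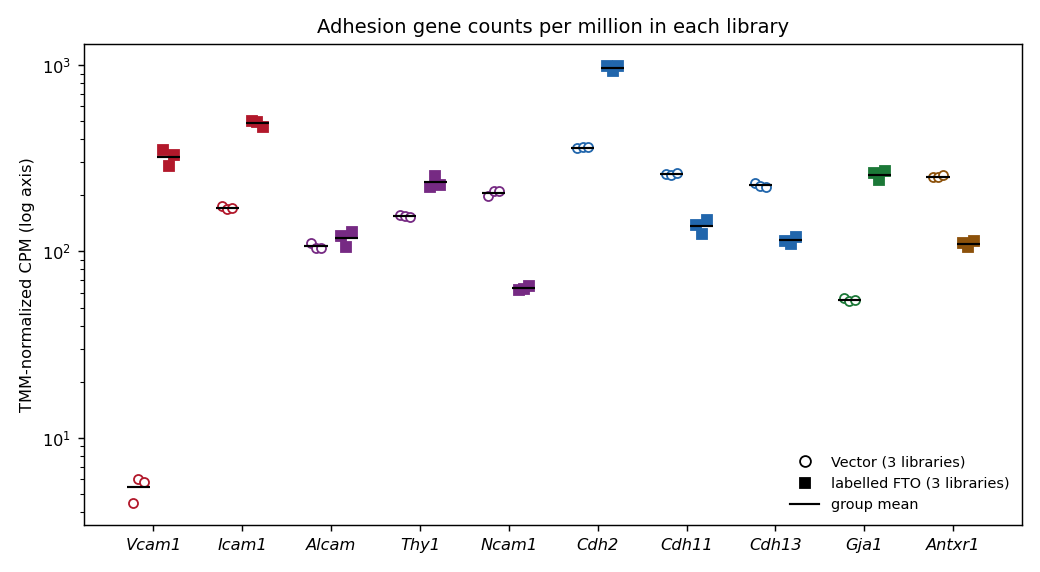
TMM-normalized CPM (log axis) of each adhesion gene in the 3 Vector libraries (open circles) and the 3 libraries labelled FTO (filled squares), with group means as lines. Values are to be compared within a gene. Vcam1 rose from about 5.44 to 322 CPM on average, and Alcam is the gene whose groups overlap.

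The 2 leukocyte ligands among the members were higher in the libraries labelled FTO, Vcam1 far more than Icam1. Vcam1, whose product is bound by the integrin VLA-4, was at 4.46, 6.04 and 5.82 CPM in the Vector libraries (61, 90 and 84 reads) and at 349, 289 and 328 CPM in the libraries labelled FTO (4977, 3822 and 5870 reads). Every library labelled FTO lay far above every Vector library. The rise was 58.9-fold (95% interval 50.9 to 68.0), or 5.88 on the log2 scale (SE 0.0977, edgeR adjusted p-value 1.5e-16). By fitted log2 fold change it was the 97th largest rise among the genes tested.

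Icam1, whose product is bound by LFA-1, was already well expressed in Vector, at 175, 169 and 171 CPM. It was at 499, 493 and 468 CPM in the libraries labelled FTO. The groups were apart by 293 CPM at their nearest libraries, and the replicates within each group lay close together. This was a 2.83-fold rise (95% interval 2.66 to 3.02) and 1.5 in log2 units (SE 0.0424, edgeR adjusted p-value 8.2e-14). The ratio of Vcam1 to Icam1 reads was 0.0255 to 0.0357 in Vector and 0.585 to 0.701 in the libraries labelled FTO, so the balance of the ligands shifted toward Vcam1 in each of these libraries.

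The promoters of Vcam1, Icam1 and Gja1 are shown because these genes had the largest increases of the 10. Each run is the 250 bases before the annotated start, 5′ to 3′ on the strand of the gene, on GRCr8 (counts were made on rn6 according to the processing notes). Vcam1 lies on the minus strand at chr2:206742784-206743033, Icam1 on the plus strand at chr8:27829595-27829844 and Gja1 on the plus strand at chr20:36302314-36302563. Capitals mark matches, on either strand, to GGNNNTTCC (a short NF-κB-like pattern), to the degenerate NF-kB consensus or to TGANTCA (the AP-1 pattern).
Vcam1: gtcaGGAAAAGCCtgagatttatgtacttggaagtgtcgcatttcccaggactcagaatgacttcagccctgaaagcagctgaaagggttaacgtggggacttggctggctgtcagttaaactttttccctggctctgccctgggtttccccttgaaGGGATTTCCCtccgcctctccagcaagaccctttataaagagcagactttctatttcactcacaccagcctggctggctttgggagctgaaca
Icam1: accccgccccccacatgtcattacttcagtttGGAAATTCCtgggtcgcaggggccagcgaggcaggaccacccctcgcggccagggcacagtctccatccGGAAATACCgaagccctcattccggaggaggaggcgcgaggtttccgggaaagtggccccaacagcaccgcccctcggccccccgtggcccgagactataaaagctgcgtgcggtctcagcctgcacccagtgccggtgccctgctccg
Gja1: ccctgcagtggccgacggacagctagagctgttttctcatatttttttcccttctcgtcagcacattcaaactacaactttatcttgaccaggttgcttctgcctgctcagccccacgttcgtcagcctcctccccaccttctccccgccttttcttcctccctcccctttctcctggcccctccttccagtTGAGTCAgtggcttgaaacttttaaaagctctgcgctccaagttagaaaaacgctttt

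Of the 4 members with an entry in the promoter table used here (Alcam is the other), 2 held GGNNNTTCC, namely Vcam1 and Icam1, with 2 matches each, against 18.3% of 33469 promoters of this length (250 bases before and 50 after the start). In Vcam1 the match nearest the start began 93 bases before it, and there GGGATTTCC also lies inside a match to the NF-kB consensus. In Icam1 the matches GGAAATTCC and GGAAATACC began 218 and 149 bases before the start. The NF-kB consensus was found in 2 of the 4, Vcam1 and Alcam, against 10.5% of all promoters. TGANTCA was found in Gja1 alone among the 4 (7.33% of all promoters), 58 bases before the start. The interferon element (ISRE core, which is GAAA, then NN, then GAAA) was found in Vcam1 alone (3.92%), TATAAA in Vcam1 and Icam1 (14.2%), and CACCTG, the E-box bound by Snail and Zeb factors, in 0 of the 4 (18.8%). A match is a description of the letters and not of a bound factor.

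The 3 other molecules of the immunoglobulin superfamily moved in different directions. Thy1, a GPI-anchored marker of fibroblasts that binds integrins on other cells, was at 157, 155 and 153 CPM in Vector and at 222, 254 and 227 CPM in the libraries labelled FTO. The groups did not overlap, although the rise was modest. It rose 1.51-fold (95% interval 1.40 to 1.63), or 0.60 on the log2 scale (SE 0.0513, edgeR adjusted p-value 6.6e-08).

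Ncam1, the neural cell adhesion molecule, was at 198, 210.0 and 212 CPM in Vector and at 61.9, 63.1 and 64.9 CPM in the libraries labelled FTO. It was the member with the largest decrease, and its libraries labelled FTO agreed within a few CPM. This was a fall of 3.26-fold (95% interval 3.04 to 3.50) and -1.71 in log2 units (SE 0.0478, edgeR adjusted p-value 7.5e-14). Of 8 Schwann and neural markers, 6 could be tested and 4 of these were called lower, with summed levels of 157 to 164 CPM in Vector and 103 to 106 CPM in the libraries labelled FTO (42.9 to 48.2 and 30.4 to 33.1 CPM without Tubb3). Their part in the change of Ncam1 was not tested.

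Alcam, a ligand of CD6 on T cells, was at 110.5, 104 and 105 CPM in Vector and at 120.4, 106 and 127 CPM in the libraries labelled FTO. The groups overlapped, since the library FTO replicate 2 lay below Vector replicate 1. The difference of 0.15 on the log2 scale (SE 0.0614, edgeR adjusted p-value 0.0495) passed narrowly, with a fold of 1.11 (1.01 to 1.21). The call was lost when FTO replicate 1 (0.12, adjusted p-value 0.170) or 3 (0.08, 0.196) was left out. It was also lost when Vector replicate 1 (0.17, 0.0519), 2 (0.13, 0.154) or 3 (0.13, 0.152) was dropped, whereas dropping FTO replicate 2 gave 0.22 with an adjusted p-value of 6.4e-04. Over its 14 alternatives the adjusted p-value ran from 6.4e-04 to 1, with 10 of them at or above 0.05, so this call is not a firm one.

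The cadherins did not move together. Cdh2, the N-cadherin gene, rose, while Cdh11 and Cdh13 fell by similar amounts. Cdh2 was at 358, 362 and 362 CPM in Vector and at 985, 928 and 990.4 CPM in the libraries labelled FTO. Each library labelled FTO lay more than 565 CPM above each Vector library, and Vector replicates differed by less than 5 CPM. This was a 2.68-fold rise (95% interval 2.53 to 2.85) and 1.42 in log2 units (SE 0.0405, edgeR adjusted p-value 9.0e-14).

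Cdh11 was at 260.2, 256 and 262 CPM in Vector and at 139, 124 and 147 CPM in the libraries labelled FTO. Cadherin-11 is a classical cadherin of the type with catenin-binding tails. The groups were well apart, with FTO replicate 2 the lowest. Levels were 1.89-fold lower (95% interval 1.75 to 2.05), -0.92 on the log2 scale (SE 0.0541, edgeR adjusted p-value 6.7e-10). Cdh13, whose product is held by a GPI anchor, has no cytoplasmic tail and binds adiponectin, was at 233, 223 and 222 CPM in Vector and at 114, 110.1 and 119.8 CPM in the libraries labelled FTO. These groups did not overlap either. This was a fall of 1.97-fold (95% interval 1.84 to 2.10) and -0.97 in log2 units (SE 0.0461, edgeR adjusted p-value 4.5e-11). The intervals of Cdh11 and Cdh13 overlap, and their difference was not tested.

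**Figure D2:**
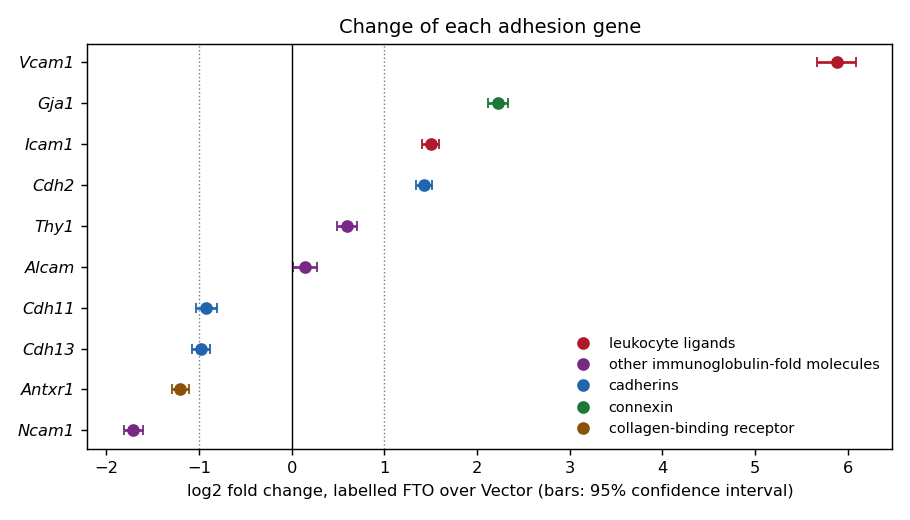
Log2 fold change of each adhesion gene, libraries labelled FTO over Vector, with 95% confidence intervals and dotted lines at a change of 1 in either direction. The ligands Vcam1 (5.88) and Icam1 (1.5), Gja1 (2.23) and Cdh2 (1.42) lie on the right, and Cdh11 (-0.92), Cdh13 (-0.97), Antxr1 (-1.20) and Ncam1 (-1.71) on the left.

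The leukocyte ligands were then set against the cadherins. Both ligands and Cdh2 rose, and the log2 fold change of Icam1 exceeded that of Cdh2 by only 0.08, so the contrast between the classes rested on Vcam1 and on the falls of Cdh11 and Cdh13. The mean log2 fold change was 3.69 over the 2 ligands and -0.16 over the 3 cadherins. Summed ligand levels were 175 to 180 CPM in Vector and 782 to 848 CPM under the FTO label, 4.56-fold more on average. Summed cadherin levels rose less, from 841 to 851 CPM in Vector to 1162 to 1257 CPM, or 1.44-fold, because the rise of Cdh2 outweighed the falls of the other two.

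The ratio of ligand to cadherin reads was 0.211, 0.208 and 0.209 in the Vector libraries. It was 0.685, 0.673 and 0.633 in the libraries labelled FTO, 3.17-fold higher on average, and no library of either group came near the other group. Within the cadherins, the reads of Cdh2 per read of Cdh11 went from 1.38 to 1.41 in Vector to 6.74 to 7.45, and the reads of Cdh13 per read of Cdh2 went from 0.612 to 0.650 down to 0.116 to 0.121. The members were chosen with results known, so these ratios are descriptions without a test. The contrast was drawn for the members only. Related genes had median log2 fold changes of -0.24 (other molecules of leukocyte adhesion and immune regulation) and 0.22 (other genes of the cadherin superfamily). These lists are mixed, so their medians cannot show whether the contrast extends to other ligands.

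**Figure D3:**
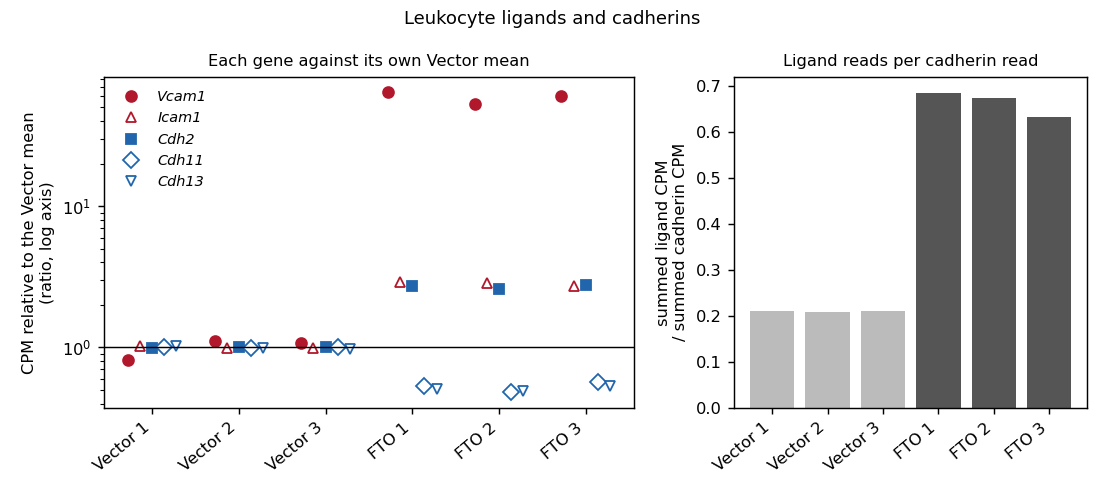
Left, CPM of the 2 ligands (red) and 3 cadherins (blue) in each library relative to the mean of that gene in Vector, on a log axis. Icam1 and Cdh2 lie beside each other near a ratio of 2.83 and 2.68, Vcam1 far above and Cdh11 and Cdh13 below 1. Right, summed ligand CPM divided by summed cadherin CPM in each library, from 0.208 to 0.211 in Vector and 0.633 to 0.685 in the libraries labelled FTO.

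Gja1, the connexin 43 gene, was at 56.3, 54.5 and 54.6 CPM in Vector and at 264, 241 and 269 CPM in the libraries labelled FTO. The groups did not overlap, and only Vcam1 of the members rose more. It rose 4.68-fold (95% interval 4.33 to 5.06), or 2.23 on the log2 scale (SE 0.0523, edgeR adjusted p-value 8.4e-15). Cdh2 and Gja1 are also cardiomyocyte genes, and cardiomyocyte markers moved in the same direction. Myh6 and Tnni3, a myosin heavy chain and a troponin, rose by 1.37 and 1.89 on the log2 scale, Myl7 by 1.80, while Tnnt2 changed by -0.25. The part of cardiomyocyte RNA in the rise of Cdh2 and Gja1 was not tested.

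Antxr1, which binds collagen and was first described on tumour endothelium, was at 249, 250.3 and 257 CPM in Vector and at 110.5, 105 and 114 CPM in the libraries labelled FTO. All libraries labelled FTO were below all Vector libraries. Levels were 2.30-fold lower (95% interval 2.15 to 2.45), -1.20 on the log2 scale (SE 0.0445, edgeR adjusted p-value 2.4e-12). Its relative Antxr2, the other anthrax toxin receptor, went the opposite way, from 38.4 ± 2.17 to 80.9 ± 5.85 CPM (mean ± SD, n = 3), which is 1.08 on the log2 scale. The Wnt co-receptors Lrp5 and Lrp6, linked to the anthrax receptors as partners, changed by -0.46 and -0.61, and all 3 of these genes were called.

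Replicates spread differently in the groups. The coefficient of variation was larger in the libraries labelled FTO for 8 of the 10 members (Vcam1 and Ncam1 were the others), against 60.4% of all tested genes. FTO replicate 2 had the lowest CPM of its group for 7 of the 10 members, against 35.9% of all tested genes, and the highest for Thy1. Among the members, leaving out this or any other library changed no call except that of Alcam.

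Further genes of the same systems were examined from lists. Of all tested genes, 33.2% were called higher and 32.8% lower, and the counts of each list are to be read beside these shares. Among 19 other molecules of leukocyte adhesion and immune regulation in the files, 15 could be tested. Of these, 7 were called higher and 7 lower, with a median log2 fold change of -0.24. Selp, encoding P-selectin, rose from 0.918 ± 0.494 to 33.3 ± 2.54 CPM (log2 difference 5.15, SE 0.186). Sele, the E-selectin gene, had a mean of 1.67 reads per library and was not tested. Cd34 (2.02) and Cd274, the PD-L1 gene (2.05), rose, and so did the hyaluronan receptor Cd44 (1.23). Jam2, a junctional adhesion molecule, changed by -2.16, and Esam (-0.89) and Cd200 (-0.97) fell too. Icam2, a relative of Icam1, was called lower as well (-0.45, at a mean of 55.8 reads per library). Of the endothelial markers, 7 of 11 could be tested and 4 were called higher and 2 lower, with a list median of 0.95. Kdr, one of the 4, changed by 2.13 on the log2 scale, and the 2 lower were Erg (-1.55) and Flt1 (-0.57). Cldn5 was at 0 in every library. Their summed levels were 122 to 126 CPM in Vector and 117 to 122 CPM in the libraries labelled FTO, and without Flt1 they were 29.0 to 30.8 and 55.5 to 58.3 CPM. Their part in the rises of Vcam1, Icam1 and Selp was not tested.

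The integrins that bind these ligands went down. Of 8 counter-receptor genes in the files, 7 could be tested and all 7 of these were called lower, with a median log2 fold change of -1.38. Itga4, the α4 chain that binds VCAM-1, fell from 52.7 ± 3.40 to 5.15 ± 1.19 CPM (log2 difference -3.33, SE 0.116, edgeR adjusted p-value 9.7e-13). Its partner Itgb1, a chain that fibroblasts also use to hold matrix, changed by -1.38, and Itga9 by -1.44. The 4 tested genes of the leukocyte β2 family, Itgb2, Itgal, Itgax and Itgad, changed by -1.36 to -1.73. Itgb7 had 3.67 reads per library on average and was not tested. The genes of the β2 family are leukocyte genes, and the macrophage markers fell as well, with a median of -2.04 over 13 genes. Csf1r changed by -3.96 and Ptprc, the CD45 gene, by -1.86, while Adgre1 rose by 2.22. The part of macrophage RNA in the falls of these integrins was not tested.

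Counting the whole cadherin family, 23 classical and related Cdh genes were in the files, and 9 reached enough counts to test. Of these, 4 were called higher and 5 lower. Cdh3, encoding P-cadherin, fell most among those with at least 50 reads on average, from 131 ± 1.63 to 12.6 ± 1.26 CPM (log2 difference -3.37, SE 0.0678). Cdh5, the endothelial VE-cadherin gene, rose from 1.88 ± 0.389 to 5.65 ± 0.707 CPM (1.59). Cdh1, the E-cadherin gene, had 4.33 reads per library on average and was not tested. Over the 21 tested genes of the superfamily beyond the members, which include protocadherins, Fat cadherins and desmosomal cadherins, 10 were called higher and 9 lower, with a median of 0.22. Pcdh7 (1.74) and Pcdh19 (1.67) rose. Fat1 (-1.03) and Fat4 (-1.60), giant cadherins of planar polarity, fell.

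The catenins differed among themselves. Ctnnb1, the β-catenin gene, was at 399 ± 5.78 and 397 ± 13.6 CPM (log2 difference -0.01, SE 0.0405, edgeR adjusted p-value 0.87). Ctnna1, α-catenin, rose by 0.14 and Ctnnd1, p120-catenin, fell by 0.40 on the log2 scale. Ctnna3, αT-catenin, rose by 0.81 at a mean of 28.7 reads per library. Of the 18 catenins and junction adaptors tested, 4 were called higher and 9 lower, with a median of -0.21. Being called was about as common here as among all tested genes (65.9%). The largest falls were those of Vcl, encoding vinculin, from 1305 ± 9.50 to 264 ± 17.6 CPM (-2.30), Plekha7 (-2.02) and Arvcf (-1.53). Nectin2 rose by 0.68.

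Other adhesion molecules with immunoglobulin folds and their relatives were mostly lower. Of the 22 tested, 14 were called lower and 6 higher, with a median of -1.27. Islr (-4.28), Nrcam (-3.87), a neuronal member of the L1 family, and Hmcn1 (-3.28) had the largest falls among genes with a mean of at least 50 reads. Mcam, the CD146 gene, fell from 399 ± 4.55 to 55.2 ± 5.18 CPM (-2.86). It is also a gene of pericytes and smooth muscle. Of 8 mural markers, 7 were tested, with 3 called higher (Kcnj8 at 4.89, Abcc9 and Des both at 2.45) and 4 lower (Notch3 at -3.91, Myh11 at -3.53, Cspg4 at -1.41 and Pdgfrb at -0.49). They summed to 1587 to 1648 CPM in Vector and 1314 to 1400 CPM in the libraries labelled FTO, or 1504 to 1563 and 844 to 945 CPM without Des. Their part in the fall of Mcam was not tested. Cadm3 (3.73), Sdk1 (2.36) and Ntm (2.10) rose. Among the other connexins and pannexins, 6 of 20 in the files could be tested. Gja5, connexin 40, rose from 408 ± 6.73 to 1132 ± 28.1 CPM (1.47) and Gja4, connexin 37, fell from 6.48 ± 0.959 to 1.34 ± 0.374 CPM (-2.24). Gjc1, connexin 45, was not called, at -0.12.

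**Figure D4:**
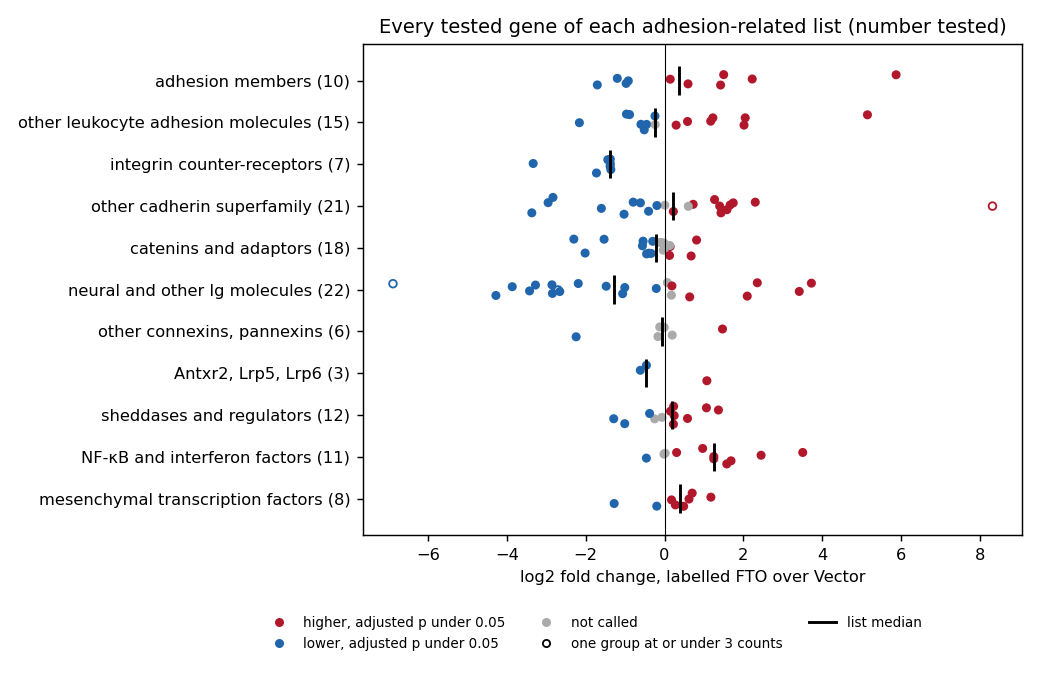
Log2 fold change of every tested gene in the adhesion list and in 10 related lists, with the number tested in parentheses and the list median as a bar. Red points were called higher, blue lower and grey not called, and open points had one group at or under 3 counts, so their fitted value is no bound. The integrin counter-receptors all lie below 0, and the NF-κB and interferon factors have a median of 1.25.

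Proteases that cut adhesion molecules from the cell surface were tested as a further list, together with regulators (Rhbdf1, Rhbdf2 and Timp3). Of 12 genes, 7 were called higher and 3 lower, with a median of 0.19. Adam17, which releases VCAM-1 and ICAM-1, rose from 114 ± 5.25 to 239 ± 3.45 CPM (1.06), and its partner Rhbdf2, which carries it to the surface, rose by 1.37. Adam15 rose by 0.58. Timp3, an inhibitor of ADAM17, fell from 103 ± 1.13 to 50.9 ± 3.56 CPM (-1.01), and Adam12 (-1.29) and Adam19 (-0.38) fell. Adam10, which cuts N-cadherin, rose by 0.23.

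Of 11 NF-κB and interferon factors, 8 were called higher and 1 lower, with a median of 1.25. Tnfaip3 (3.51) and Nfkbia (2.45), feedback inhibitors that NF-κB induces, rose. Rel was the factor that fell, by 0.46 on the log2 scale. The part of these factors in the rises of Vcam1 and Icam1 was not tested. Among 8 transcription factors known from cadherin switching in mesenchymal cells, 6 were called higher and 2 lower, with a median of 0.38. Twist2 (1.18), Twist1 (0.70), Prrx1 (0.62), Snai1 (0.49), Tcf4 (0.28) and Zeb2 (0.18) were higher, and Snai2 (-1.28) and Zeb1 (-0.20) lower. Their part in the changes of the cadherins was not tested.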

How the data were processed

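RNA-seq was analysed for 6 libraries of neonatal rat cardiac fibroblasts, 3 Vector and 3 labelled FTO, grouped by the genotype labels. The authors deposited raw counts per gene symbol, 1 file per library. The submitters' processing notes name Trimmomatic and the build rn6. Which aligner, counter, annotation and strand setting were used is not given in the sources used here. How reads shared by similar genes were treated is therefore unknown.

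From the deposited counts, genes were kept with filterByExpr (minimum count 10) and normalized with TMM factors (a trimmed mean of log ratios) to CPM. The groups were compared by the two-sided quasi-likelihood test of edgeR 4.0.16 in R 4.3.3, with no covariate and Benjamini-Hochberg adjustment over all 12941 genes tested. Called means an adjusted p-value under 0.05. The standard error (SE) was derived by dividing the log2 fold change by the square root of F, and 95% intervals from the t distribution of the fit. Fitted intervals cover the spread between libraries and counting error only. Alternatives were DESeq2 1.42.0, limma-voom (limma 3.58.1), 2 other scalings, 2 other filters, glmTreat, the replicate number as a block, and a fit without each library. Scripts were tested on simulated data.

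The members and lists were chosen with earlier results of these data known. Named were the members, Fto and, per list, up to 3 genes a direction with the largest called change, no overlap and a mean of at least 50 counts. Lists of 10 or fewer genes could be named in full, and genes named otherwise were picked after their values were seen. Itgam, Pvr and Dchs2 are not analysed here, and 1 gene that the rule names is not reported here. Replicate numbers were not used to pair the libraries in the main fit. Same-numbered libraries deviated from their group means with correlations of 0.003, -0.069 and 0.021 across genes. With so few libraries, these values cannot exclude a culture or batch shared by libraries of the same number. Promoter sequences came from a table of RefSeq promoters on GRCr8, in which 4 of the 10 members were matched.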

Additional observations from a re-analysis of the deposited data

How the results depend on the processing

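The 9 adhesion genes other than Alcam kept their direction and their call under each of 14 alternatives. Alcam passed in 4 of its 14, and in 140 values over the 10 genes no direction was reversed. Across the fits that left out a library, 9 to 10 members were called. The members past the 2-fold threshold numbered 6 to 7, Cdh13 being the gene that came in, at -1.01. The mean log2 fold change of the ligands minus that of the cadherins ran from 3.79 to 3.89. Over all genes, 5668 were called under glmTreat in place of 8531, since it asks for evidence beyond 1.2-fold. Adding a block for the replicate, 8399 genes and all 10 members were called, so the block changed no call of a member. The numbers called in 3 related lists moved by more than 1.5 times under an alternative. With no filter 4 connexins were called in place of 2. Under glmTreat 6 proteases and regulators were called in place of 10, and 5 mesenchymal transcription factors in place of 8. The cause was not tested for the connexins. Depth limits genes near 3 counts per library, such as Sele, Itgb7 and Cdh1, for which no fold is given.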
